A study of Arabidopsis thaliana with 27 samples.

Results

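Among the 18899 genes with values in 27 leaf RNA-seq libraries of Arabidopsis thaliana, 107 were far higher 3 h after oral secretions were put on a wound than in unwounded leaves, while water on the same kind of wound left them near the unwounded level. These 107 genes, called the OS-selected genes here, were picked by group means of the log2 CPM, where CPM are reads scaled to library size: Pb OS and Sl OS at 3 h each at least 2.5 above the Control mean, W at 3 h within 1 of it in either direction, and the largest group mean at least 1. All 3 h values below therefore describe the choice and carry no test. For 609 other genes both OS means were also at least 2.5 above Control but the W mean was more than 1 above it; they serve as the comparison set.

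Leaves of 5-week-old wild-type Col-0 plants were pierced with 4 holes of 1 mm each, and 2 µl of liquid went on each hole. The Pb OS groups received oral secretions (OS) of Pieris brassicae larvae, the Sl OS groups those of Spodoptera littoralis larvae, and the W groups H2O, with leaf discs of 1 cm around the wound taken at 3 h and at 24 h. The Control group was left unwounded and was sampled only at the 3 h time. Each of the 7 groups had 4 libraries, apart from W at 3 h with 3, since the study had set 1 outlying library aside, and the total on tabulated genes was 22.48 to 31.34 M reads per library. Pb larvae had been moved to Arabidopsis before their OS were collected, plants were handled in groups for each treatment, and the labels name no transgene or mutation. With no unwounded leaves taken at 24 h, a difference of a 24 h group from Control holds both treatment and time of sampling, which cannot be told apart.

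Chewing larvae wet the wound with OS, which carry fatty acid conjugates, proteins and other molecules that plants can sense. Wounding alone triggers the jasmonate pathway, and OS can add responses otherwise known from microbial attack. In the salicylic acid branch, ALD1 and FMO1 make pipecolic acid and N-hydroxypipecolic acid, signals of systemic resistance. In the apoplast, the space outside the cell membrane, peroxidases form reactive oxygen, chitinases cut chitin, and lectins bind sugars. Other defence outputs include camalexin, an indole phytoalexin of Arabidopsis, sugar and glutathione conjugates, and remodelling of wall polymers.

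Stretches upstream of 8 of the genes are shown because the results turn on them: a pair of lectin genes with closely similar upstream sequence, a neighbouring pair of peroxidase genes with unlike values, and the 4 genes that passed the test at 24 h. Each is the 250 bases before the annotated gene start, read on the gene's strand, 5′ to 3′, in the RefSeq sequence of TAIR10.1, and the windows lie outside the annotated genes they belong to. Capitals mark TTGAC and ACGTG on either strand (GTCAA and CACGT where the match is on the other strand), the cores of the W box, bound by WRKY factors, and of the G-box and abscisic acid response elements.
AT3G16530, lectin, chr3:5625520-5625769, minus strand: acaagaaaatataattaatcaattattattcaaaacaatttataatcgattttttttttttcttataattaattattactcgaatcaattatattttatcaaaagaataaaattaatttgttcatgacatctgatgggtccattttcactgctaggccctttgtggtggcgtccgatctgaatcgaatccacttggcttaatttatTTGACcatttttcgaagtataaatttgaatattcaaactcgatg
LEC, lectin, chr3:5175524-5175773, minus strand: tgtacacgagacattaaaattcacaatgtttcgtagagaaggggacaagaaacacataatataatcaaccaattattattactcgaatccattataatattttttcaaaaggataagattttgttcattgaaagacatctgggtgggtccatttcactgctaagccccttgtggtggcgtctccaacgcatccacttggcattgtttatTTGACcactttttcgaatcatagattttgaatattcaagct
PER33, peroxidase, chr3:18200337-18200586, plus strand: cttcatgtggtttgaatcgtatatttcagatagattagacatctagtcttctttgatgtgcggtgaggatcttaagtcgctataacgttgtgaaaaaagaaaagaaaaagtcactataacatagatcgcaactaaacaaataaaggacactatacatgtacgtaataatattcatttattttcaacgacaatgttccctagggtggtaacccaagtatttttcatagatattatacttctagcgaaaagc
PER34, peroxidase, chr3:18207401-18207650, plus strand: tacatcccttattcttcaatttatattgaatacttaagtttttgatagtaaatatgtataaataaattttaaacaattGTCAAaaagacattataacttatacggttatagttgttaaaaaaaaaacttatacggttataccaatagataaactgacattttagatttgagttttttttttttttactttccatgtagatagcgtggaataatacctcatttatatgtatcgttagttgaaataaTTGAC
PGDH, serine synthesis, chr1:6100714-6100963, plus strand: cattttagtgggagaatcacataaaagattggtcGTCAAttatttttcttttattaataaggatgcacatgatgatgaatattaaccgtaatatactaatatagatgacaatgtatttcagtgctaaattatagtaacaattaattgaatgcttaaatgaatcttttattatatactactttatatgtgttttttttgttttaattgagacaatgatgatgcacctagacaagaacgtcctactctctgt
AT4G33150, lysine breakdown, chr4:15991634-15991883, minus strand: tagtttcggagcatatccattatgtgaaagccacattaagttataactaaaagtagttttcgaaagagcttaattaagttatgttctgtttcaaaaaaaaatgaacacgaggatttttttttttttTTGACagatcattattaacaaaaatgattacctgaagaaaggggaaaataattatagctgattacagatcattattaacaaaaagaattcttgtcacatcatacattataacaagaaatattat
DXPS1, annotated in isoprenoid synthesis, chr3:7576722-7576971, minus strand: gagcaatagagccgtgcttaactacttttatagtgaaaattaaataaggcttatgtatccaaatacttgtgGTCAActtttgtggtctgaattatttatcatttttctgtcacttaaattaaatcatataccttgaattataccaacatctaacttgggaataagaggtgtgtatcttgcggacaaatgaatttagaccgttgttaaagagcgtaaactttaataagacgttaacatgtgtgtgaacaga
AT1G60730, oxidoreductase, chr1:22360278-22360527, minus strand: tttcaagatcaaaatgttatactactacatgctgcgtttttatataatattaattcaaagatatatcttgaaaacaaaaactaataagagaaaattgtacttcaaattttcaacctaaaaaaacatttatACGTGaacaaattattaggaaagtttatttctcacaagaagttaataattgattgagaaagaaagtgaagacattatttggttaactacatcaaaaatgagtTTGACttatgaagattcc
Of the bases that aligned without a gap, 87.7% were identical between the lectin pair (192 of 219) and 72.7% between the peroxidase pair (152 of 209).

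Some libraries stood apart, and this bears on every value at 3 h. In Control replicate 2, 53 of the 107 genes were more than 1 log2 unit above the mean of the other Controls, against 7.55% of all genes. Sl OS 3 h replicate 2 was high, with 40 of the genes more than 1 above their group mean, and Pb OS 3 h replicate 2 was low, with 43 more than 1 below it. The median deviation was 0.84 and −0.88 in these OS libraries, against −0.01 and 0.01 over all genes. All these libraries were used in the choice, so the counts are a description. The deposited values had been corrected for 2 batches of plants, replicates 1 and 2 against 3 and 4. Within replicates 1 and 2 (with 1 W library), 30 of the 107 genes met all 3 limits, and within replicates 3 and 4, 44 did, with median W minus Control of 0.26 and 0.99. Leaf mesophyll markers also differed by group: the summed CPM of all 6 (RBCS-1A, AT5G38410, LHCB1.3, LHCA1, BCA1, RCA) was 17200 to 29700 with Pb OS at 3 h, 8960 (replicate 2) to 28400 with Sl OS at 3 h and 42200 to 54400 with W at 3 h, against 49800 (replicate 2) to 79600 in Control. The leaf label thus fits its markers, and 0 of 3 root markers were in the table. Guard cell markers (4 of 4 in the table) also moved with the groups: they summed to 52.2 to 91.8 CPM with Pb OS, 61.3 to 84.3 with Sl OS and 43.2 to 74.4 with W at 3 h, against 35.1 to 49.3 CPM in Control, so the OS groups and Control did not overlap. At 24 h they summed to 30.5 to 37.4 CPM with Pb OS and 33.3 to 67.0 with Sl OS, against 43.4 to 57.9 with W. Phloem markers (2) summed to 221 to 279 CPM with Pb OS, 224 to 266 with Sl OS and 213 to 325 with W at 3 h, against 231 to 324 in Control. The part of these shifts in the results was not tested, and in whole leaf discs fewer cells of a type and less RNA per cell cannot be told apart.

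At 3 h the 107 genes were a median 3.01 log2 units above Control with Pb OS (range 2.52 to 6.60) and 3.22 above with Sl OS (2.51 to 7.36). With W the median was 0.69 (−0.41 to 1.00), 102 genes (95.3%) were above 0 and 71 (66.4%) above 0.5, beside 49.7% and 14.8% of all genes. The choice favours genes with low Control means, and so W values above Control, and nothing is read from these shares. The medians over all genes were −0.001 for Pb OS, 0.011 for Sl OS and −0.002 for W. In 75 of the genes all 8 OS libraries at 3 h lay above every W 3 h and Control library, a pattern that 9.36% of all genes had and that the choice of the genes favours. In the other 32 the groups overlapped. Mean CPM over both OS at 3 h ran from 0.834 to 1080 (median 19.2), and CPM are not corrected for gene length, so levels are set side by side only within a gene. In 20 genes at least 1 Control library had 0 reads, and in 7 the 4 Controls together held under 10 reads, so their folds are loosely determined.

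**Figure D1:**
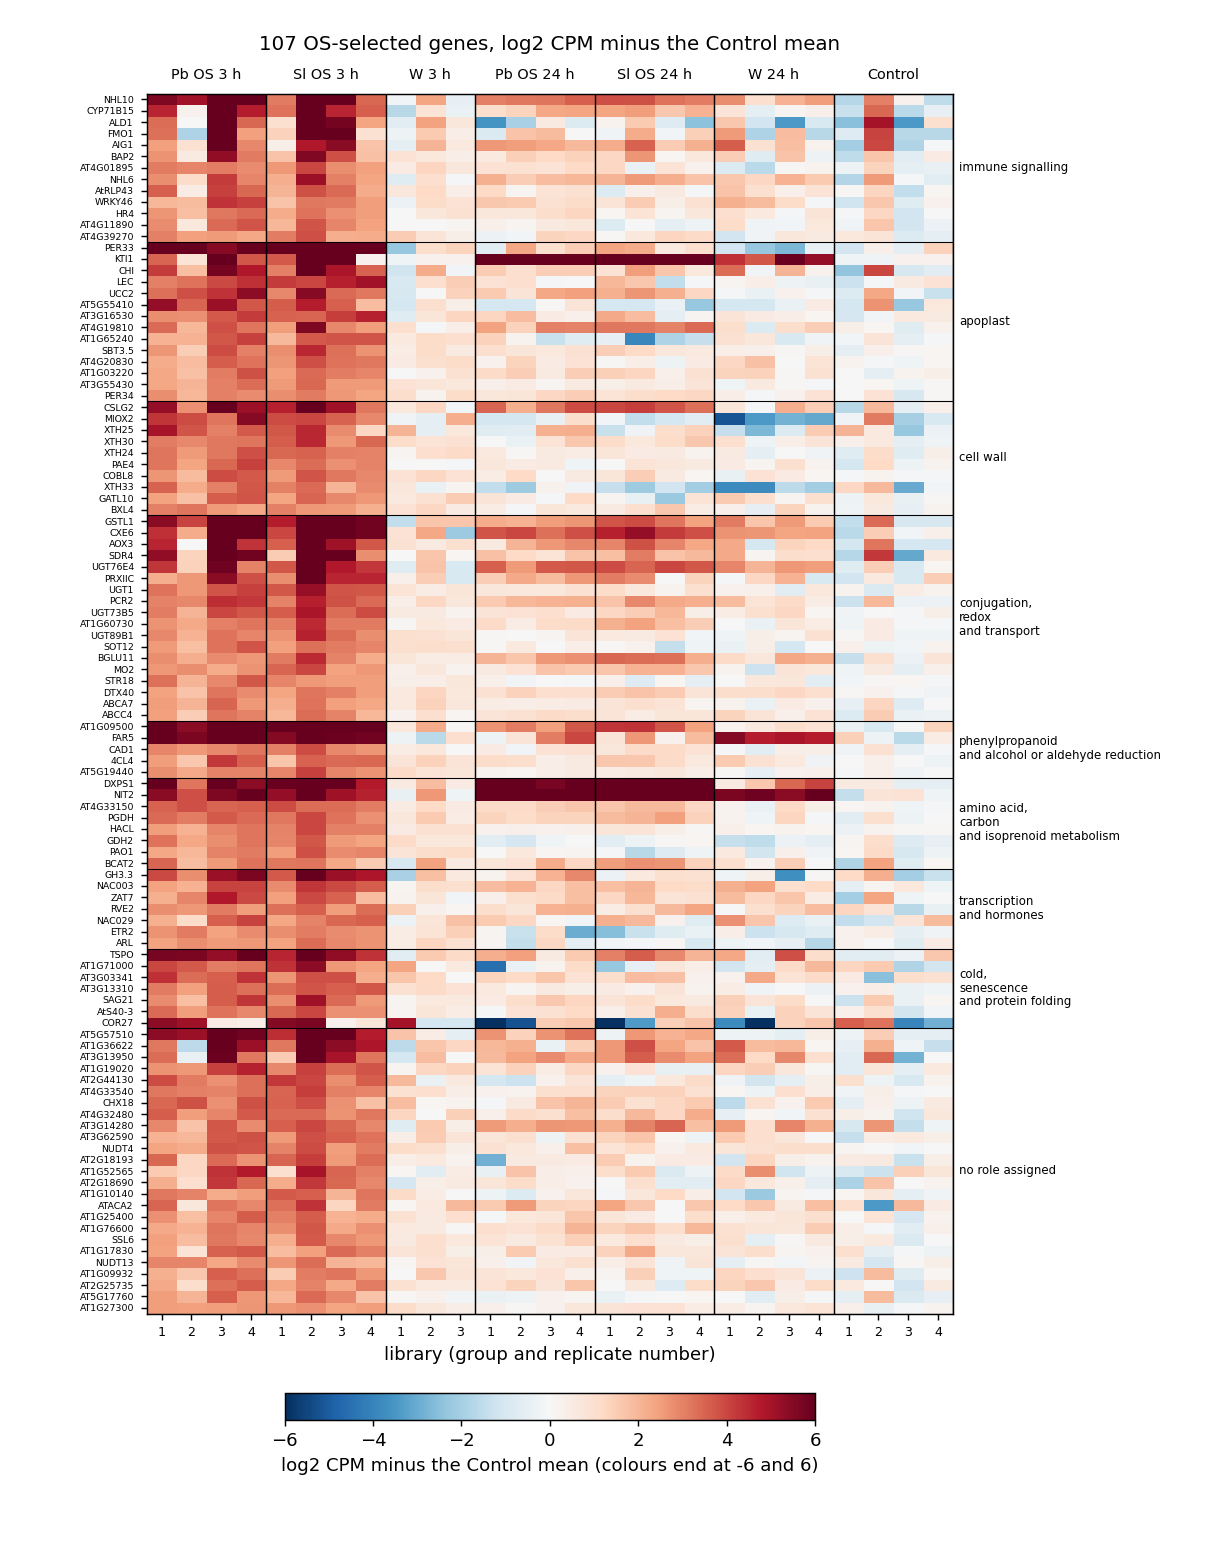
Heat map of the 107 OS-selected genes (rows, grouped by role) in 27 libraries (columns, by group and replicate number), as log2 CPM minus the Control mean, on a colour scale with fixed ends. The OS columns at 3 h are red throughout apart from single low libraries and COR27, W at 3 h is pale, and Control replicate 2 is red in the immune signalling rows.

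Immune signalling genes (13) had median differences from Control of 2.92 with Pb OS, 3.07 with Sl OS and 0.56 with W at 3 h. ALD1, an aminotransferase of pipecolic acid synthesis, had 4.04, 0.397, 57.9 and 4.29 CPM with Pb OS, 0.784, 78.7, 21.5 and 2.03 with Sl OS and 0.260, 2.09 and 0.639 with W at 3 h, against 0.0708, 12.7, 0.0366 and 0.770 CPM in Control. FMO1, the monooxygenase that turns pipecolic acid into its N-hydroxy form, had 1.16, 0.0324, 13.2 and 0.656 CPM with Pb OS, 0.305, 30.8, 12.1 and 0.218 with Sl OS and 0.0959, 0.347 and 0.152 with W, against 0.0696, 1.96, 0.0372 and 0.0372 in Control. Both genes spanned a wide range within each OS group, their groups overlapped, and Control replicate 2 lay above several OS libraries. The lowest FMO1 values, 0.0324 and 0.0372 CPM, stand for 0 reads, which the log scale places just above zero.

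CYP71B15 (PAD3), the P450 that completes camalexin, had 45.6, 2.27, 134 and 48.8 CPM with Pb OS, 18, 589, 45.2 and 23.0 with Sl OS and 0.606, 3.33 and 1.42 with W, against 0.749, 20.6, 0.622 and 1.33 in Control, and 6 of its 8 OS libraries were above every W and Control library. Its W mean was the lowest of the 107 genes relative to Control (−0.41). WRKY46, a transcription factor of basal resistance, had 16.8, 16.0, 85.3 and 73.0 CPM with Pb OS, 13.7, 38.0, 36.3 and 24.3 with Sl OS and 3.25, 8.94 and 7.60 with W, against 1.86, 13.1, 2.56 and 5.04 in Control. The WRKY46 groups did not overlap, though the gap between the lowest Sl OS library and Control replicate 2 was small. NHL10, a membrane protein gene used as a marker of pattern-triggered immunity, was 6.27 above Control with Pb OS and 5.08 above with Sl OS, against 0.56 with W. HR4, a homologue of the RPW8 mildew resistance genes, averaged 348 CPM with Pb OS, 317 with Sl OS and 72.1 with W, against 56.5 in Control. The receptor-like protein gene AtRLP43 was 2.9, 2.87 and 0.77 above Control with Pb OS, Sl OS and W.

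Control replicate 2 weighed on this group: all 13 of its genes were more than 1 above the other Controls in that library and 9 were more than 2 above, with a median of 2.24. Without that library, 4 of the 13 would still meet the rule, and in 9 the W mean would be more than 1 above Control. The 3 h libraries also differed in the summed level of salicylic acid genes outside the 107. The summed CPM of the 19 such genes on a list of the salicylic acid, pipecolate and EDS1 node was 2160, 681, 5150 and 2140 with Pb OS, 1160, 6190, 3010 and 1090 with Sl OS and 818, 1050 and 915 with W, against 740, 2150, 347 and 535 in Control. The high libraries were thus Sl OS replicate 2 and Pb OS replicate 3 among the OS groups and replicate 2 among the Controls, and Pb OS replicate 2 was low. PR1, the classic marker, had 382 CPM in Control replicate 2 and 1.06, 0.0405 and 1.11 CPM in replicates 1, 3 and 4, BGL2 (PR2) had 614 against 26, 12.8 and 68.1 CPM, and PR5 had 389 against 25.2, 38.0 and 36.5 CPM. Control replicate 2 was the highest Control for 18 of all 21 genes on that list. The sums are weighted to the highest genes, such as these PR genes in Control replicate 2, and the list was mixed at 3 h. Over its 21 genes the median difference from Control was 1.80 with Pb OS and 1.77 with Sl OS. Below Control with both OS were EDS16 (−0.94 and −1.14), EDS1 (−0.98 and −1.63), CBP60G (−0.51 and −0.34) and PAD4 (−0.17 and −0.52). Control replicate 2, part of that Control mean, was 1.29, 0.55, 1.32 and 1.52 above the other Controls for these genes. The small differences of CBP60G and PAD4 therefore depend on that library. The part of these levels in the results was not tested.

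**Figure D2:**
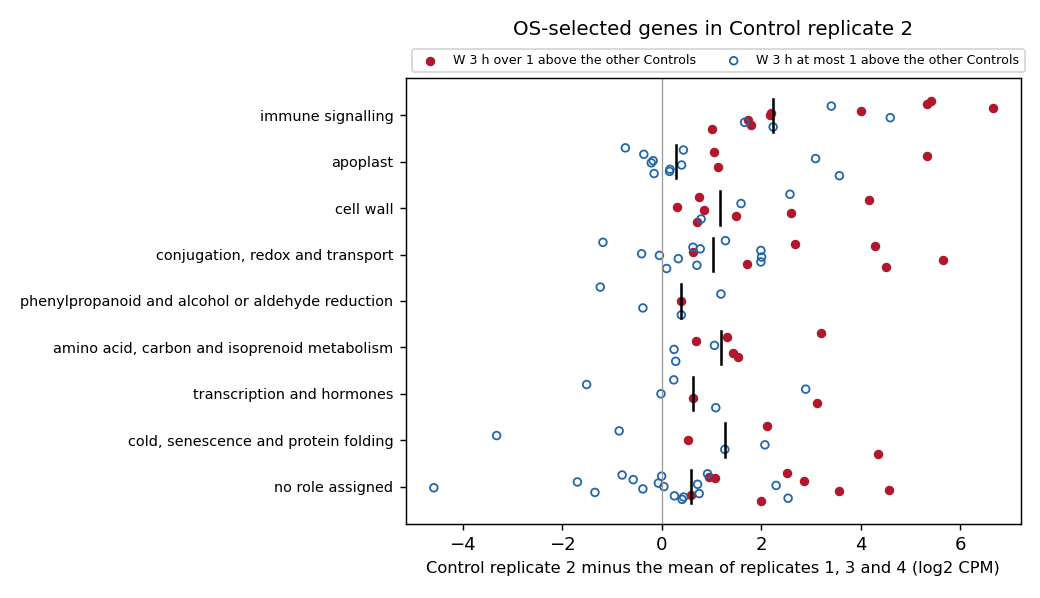
Each point is an OS-selected gene, placed by its log2 CPM in Control replicate 2 minus the mean of Control replicates 1, 3 and 4, by role; filled points have a W 3 h mean more than 1 above those 3 Controls, open points do not, and black lines are medians. The immune signalling genes lie furthest right (median 2.24), the apoplast genes near 0 (median 0.29).

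Over all roles, 83 genes of the table met the rule without Control replicate 2, and 57 of these were among the 107. Of the 50 that dropped out, 44 did so because W was then more than 1 above Control and 6 because an OS difference came under 2.5. The share that stayed was 11 of 14 for apoplast genes, 12 of 18 for conjugation, redox and transport, 4 of 5 for phenylpropanoid and alcohol or aldehyde reduction, 3 of 10 for cell wall, 3 of 8 for amino acid, carbon and isoprenoid metabolism, 4 of 7 for transcription and hormones, 3 of 7 for cold, senescence and protein folding and 13 of 25 for genes with no role assigned.

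Apoplast genes (14) were a median 3.24 above Control with Pb OS, 3.41 with Sl OS and 0.43 with W. In 11 of them no OS library at 3 h overlapped W or Control. The choice of the genes favours this pattern, which 75 of the OS-selected genes and 9.36% of all genes had. AT3G16530, a legume-type lectin gene, had 243, 233, 446 and 640 CPM with Pb OS, 403, 390, 615 and 854 with Sl OS and 21.1, 58.0 and 84.1 with W, against 17.3, 31.1, 52.2 and 51.1 in Control. Its paralogue LEC had 154, 183, 301 and 395 CPM with Pb OS, 350, 302, 478 and 629 with Sl OS and 10.2, 38.5 and 53.2 with W, against 7.86, 17.4, 28.0 and 34.3 in Control. In both lectin genes the lowest OS library was well above the highest W library, and Control replicate 2 was not the highest Control. The mean differences were 3.37 and 3.95 for AT3G16530 and 3.66 and 4.47 for LEC with Pb OS and Sl OS, against 0.44 and 0.53 with W. The pair are close paralogues and the handling of reads that match both is not given in the sources used here, so the split of reads between them is uncertain.

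PER33 and PER34, class III peroxidases of the oxidative burst in Arabidopsis, lie side by side on chromosome 3 at chr3:18200587-18203265 and chr3:18207651-18210333 of TAIR10.1, 4386 bases apart on the plus strand with 1 annotated gene between them. PER33 had 25.2, 15.4, 8.53 and 18.5 CPM with Pb OS, 32.9, 19.4, 14.1 and 23.1 with Sl OS and 0.0407, 0.40 and 0.487 with W, against 0.0875, 0.239, 0.135 and 0.498 in Control. PER34 had 1153, 666, 1372 and 1188 CPM with Pb OS, 1163, 1466, 998 and 847 with Sl OS and 341, 195 and 354 with W, against 171, 300, 86.7 and 172 in Control. PER33 was nearly silent outside the OS groups at 3 h, at 6.34 and 6.78 above Control with Pb OS and Sl OS, while PER34 was present in every library and stood 2.67 and 2.72 above. As close paralogues the peroxidases are also uncertain in how shared reads were split.

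CHI, a chitinase gene, had 90.8, 17.5, 269 and 141 CPM with Pb OS, 40.3, 446, 148 and 58.1 with Sl OS and 2.16, 23.4 and 4.48 with W, against 0.972, 79.6, 2.54 and 3.12 in Control. Control replicate 2 overlapped both OS groups for CHI, and without that library its W mean was 1.63 above Control. KTI1, a Kunitz-type trypsin inhibitor of the sort that blocks insect gut proteases, had 14, 1, 329 and 11 reads with Pb OS and 17, 1092, 88 and 0 reads with Sl OS at 3 h, against 0 reads in every W 3 h and Control library. Its 3 h signal thus came mostly from Pb OS replicate 3 and Sl OS replicate 2. Against a floor of 3 reads per library the mean CPM was at least 23.7-fold higher with Pb OS and at least 72.6-fold higher with Sl OS than in Control. AT4G20830, a berberine bridge enzyme-like oxidase, averaged 443 CPM with Pb OS, 574 with Sl OS and 108 with W, against 59.1 in Control, and the aspartyl protease gene AT1G03220 averaged 258, 266 and 44.9 CPM in the same order, against 34.1.

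**Figure D3:**
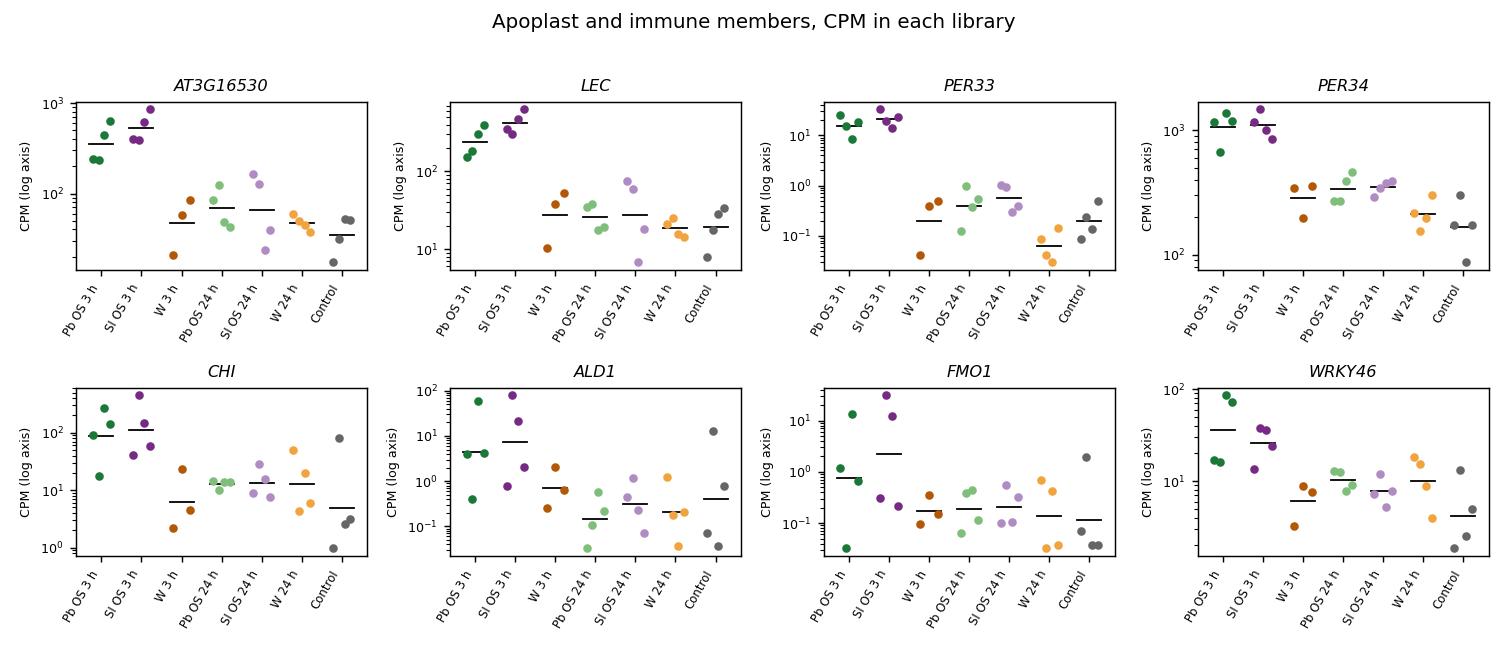
CPM in each library on a log axis for 5 apoplast genes (AT3G16530, LEC, PER33, PER34, CHI) and 3 immune signalling genes (ALD1, FMO1, WRKY46), by group; each point is a library and the black line is the mean on the log scale. The lectin and peroxidase points of the OS groups at 3 h sit above all W 3 h and Control points, whereas ALD1 and FMO1 overlap them and Control replicate 2 is a high Control point.

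Cell wall genes (10) had medians of 3.17 with Pb OS, 3.09 with Sl OS and 0.73 with W. Their 4 xyloglucan endotransglucosylase genes, XTH24, XTH25, XTH30 and XTH33, encode enzymes that cut and rejoin xyloglucan in the wall. XTH24 had 502, 324, 497 and 812 CPM with Pb OS, 596, 630, 451 and 431 with Sl OS and 61.8, 109 and 121 with W, against 33.6, 119, 32.9 and 69.0 in Control, with no overlap. XTH25 was 3.87 and 3.09, XTH30 3.07 and 3.56 and XTH33 3.13 and 2.84 above Control with Pb OS and Sl OS. CSLG2, a cellulose synthase-like gene, had the largest difference of the group, 4.93 with Pb OS and 5.17 with Sl OS, against 0.57 with W.

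Conjugation, redox and transport genes (18) had medians of 3.09 with Pb OS, 3.57 with Sl OS and 0.56 with W. UGT1 (UGT75B1), a glucosyltransferase, had 101, 64.9, 146 and 184 CPM with Pb OS, 138, 390, 146 and 138 with Sl OS and 18.4, 14.3 and 17.4 with W, against 12.1, 5.72, 14.5 and 12.3 in Control. GSTL1, a lambda-class glutathione transferase, had 3.43, 1.34, 7.30 and 5.6 CPM with Pb OS, 2.08, 8.77, 6.39 and 4.52 with Sl OS and 0.0290, 0.258 and 0.256 with W, against 0.0290, 0.840, 0.0415 and 0.0415 in Control. Every OS library of both genes was above every W and Control library. AT1G60730, an aldo-keto reductase-type oxidoreductase, had 64.7, 48.6, 80.8 and 93.5 CPM with Pb OS, 81.8, 220, 85.5 and 86.5 with Sl OS and 10.5, 15.6 and 13.8 with W, against 8.35, 13.8, 9.36 and 9.09 in Control. The other glucosyltransferases UGT73B5, UGT76E4 and UGT89B1 ranged over 2.79 to 3.63 with Pb OS and 3.37 to 5.05 with Sl OS.

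The same group held CXE6, a carboxylesterase-like gene at 4.96 above Control with Pb OS and 5.89 with Sl OS, and SDR4, a short-chain dehydrogenase gene at 4.86 and 4.16. AOX3, an alternative oxidase that bypasses part of the mitochondrial electron chain, was at 4.01 with Pb OS and 5.28 with Sl OS, against 0.81 with W. SOT12, a sulfotransferase, was at 2.85 and 2.96 with the OS and at 0.99 with W, just under the W limit. The transporter genes ABCC4, ABCA7 and DTX40 were at 2.52 to 2.66 with Pb OS, close to the OS limit, and 2.56 to 2.76 with Sl OS. BGLU11, a beta-glucosidase, was at 2.59 and 3.20.

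In the phenylpropanoid and alcohol or aldehyde reduction group (5 genes), AT1G09500, a Rossmann-fold reductase gene, had the largest mean difference of the 107 genes. It had 26.8, 10.5, 24.9 and 49.3 CPM with Pb OS, 21.0, 175, 36.5 and 21.3 with Sl OS and 0.389, 1.15 and 0.262 with W, against 0.191, 0.131, 0.246 and 0.628 in Control, so no library of the OS groups overlapped the rest. FAR5, a fatty acyl reductase that makes fatty alcohols for suberin, had 6.79, 3.40, 8.0 and 5.04 CPM with Pb OS, 3.02, 4.72, 3.96 and 3.75 with Sl OS and 0.0550, 0.0219 and 0.135 with W, against 0.181, 0.0550, 0.0219 and 0.0914 in Control. 4CL4, a 4-coumarate:CoA ligase that activates cinnamic acids for lignin and flavonoids, averaged 55.8 CPM with Pb OS, 51.0 with Sl OS and 11.4 with W, against 5.70 in Control. AT5G19440, a cinnamyl alcohol dehydrogenase-like gene, averaged 242, 342 and 66.3 CPM with Pb OS, Sl OS and W, against 35.7 in Control.

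Amino acid, carbon and isoprenoid genes (8) had medians of 3.15 with Pb OS, 3.28 with Sl OS and 0.79 with W. PGDH, the 3-phosphoglycerate dehydrogenase that opens plastid serine synthesis, had 357, 284, 434 and 357 CPM with Pb OS, 304, 536, 323 and 223 with Sl OS and 52.8, 100 and 45.0 with W, against 21.1, 65.9, 27.3 and 32.8 in Control. AT4G33150, the bifunctional enzyme that starts lysine breakdown, had 53.0, 66.2, 52.2 and 55.5 CPM with Pb OS, 68.8, 46.3, 47.2 and 38.2 with Sl OS and 6.37, 10.5 and 6.40 with W, against 5.00, 5.23, 3.90 and 4.38 in Control. In both genes every OS library was above every W and Control library. PGDH was highest of the Controls in replicate 2. GDH2, a glutamate dehydrogenase, had 234, 122, 171 and 224 CPM with Pb OS, 189, 329, 145 and 127 with Sl OS and 54.8, 38.4 and 37.5 with W, against 27.7, 51.8, 14.6 and 17.4 in Control. BCAT2, an aminotransferase of branched-chain amino acids, was at 2.77 and 2.56 with the OS, and HACL, a lyase of 2-hydroxy acyl-CoA, averaged 309 CPM with Pb OS, 461 with Sl OS and 79.1 with W, against 46.3 in Control.

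DXPS1, annotated as a 1-deoxy-D-xylulose 5-phosphate synthase, had 72, 5, 526 and 64 reads with Pb OS, 49, 708, 191 and 39 reads with Sl OS and 0, 4 and 1 with W at 3 h, against 0 in all 4 Controls. On the floor of 3 reads per library its mean CPM was at least 44.5-fold higher with Pb OS and at least 61.0-fold higher with Sl OS than in Control. NIT2, a nitrilase, had 2.65, 0.920, 3.03 and 10.2 CPM with Pb OS, 2.37, 13.8, 2.11 and 1.52 with Sl OS and 0.0459, 0.377 and 0.0520 with W, against 0.0232, 0.108, 0.114 and 0.0520 in Control. Every OS library of both genes was above every W and Control library in CPM, with Sl OS replicate 2 the highest. For DXPS1 the margin was narrow, with 5 reads in Pb OS replicate 2 against 4 in W replicate 2.

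Genes of transcription and hormones (7) had medians of 2.77, 3.08 and 0.70 with Pb OS, Sl OS and W. GH3.3, which conjugates auxin to amino acids, had 13.4, 5.98, 31.3 and 43.6 CPM with Pb OS, 11, 251, 31.6 and 24.7 with Sl OS and 0.229, 3.06 and 1.31 with W, against 2.02, 3.91, 0.209 and 0.343 in Control, with no overlap. ETR2, an ethylene receptor, was at 2.77 and 2.85 with the OS and ARL, an ARGOS-like gene of the family that dampens ethylene response, at 2.59 and 2.84, against 0.91 and 0.87 with W. The NAC factor genes NAC003 and NAC029 were at 3.15 and 2.72 with Pb OS and at 3.67 and 3.08 with Sl OS.

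In the cold, senescence and protein folding group (7 genes) TSPO, a membrane protein gene induced by abscisic acid, was at 5.73 with Pb OS, 5.44 with Sl OS and 0.70 with W. COR27, a cold and clock gene named after its values were seen, differed between replicates 1 and 2 and replicates 3 and 4, at 24 h far more than between treatments. It had 3649, 2413, 1852 and 1711 reads with Pb OS, 4307, 4771, 1569 and 2040 with Sl OS and 2604, 569 and 564 with W at 3 h, against 829, 623, 65 and 155 in Control. At 24 h it had 0, 1, 3433 and 3594 reads with Pb OS and 0, 6, 3719 and 4215 with Sl OS, against 4, 0, 3695 and 4049 with W. The correction for batch shifted these libraries by 1 amount per gene, so the 24 h means of COR27 mix unlike libraries, and the cause was not tested. Of the 25 genes with no role assigned, AT5G57510, annotated as a cotton fiber protein, had the largest mean difference, 5.94 with Pb OS and 5.6 with Sl OS.

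The OS-selected genes were counted on gene lists that had been chosen with earlier results of these data known, so the counts are a description. The OS-selected genes were 0.566% of all genes, and the comparison set 3.22%. Of 21 gene lists, 17 held at least 1 of the 107 genes. For UDP-glycosyltransferases (78 genes in the table), 4 were OS-selected and 17 had both OS differences past 2.5 with W more than 1 above. The same 2 counts were 4 and 4 of 24 xyloglucan endotransglucosylases, 5 and 1 of 14 genes of chitin perception, chitinases, lectins and apoplastic oxidases, 2 and 5 of 27 class III peroxidases, 2 and 9 of 48 NAC factors, 2 and 5 of 76 ABC transporters, 2 and 4 of 21 genes of the salicylic acid, pipecolate and EDS1 node, 2 and 3 of 20 ethylene genes, 2 and 2 of 11 mitochondrial retrograde response genes and 2 and 1 of 9 genes of glutamate and amino acid catabolism. They were 1 and 11 of 55 WRKY factors, 1 and 11 of 41 glutathione transferases, 1 and 14 of 151 cytochromes P450, 1 and 9 of 37 MATE carriers, 1 and 4 of 20 phenylpropanoid enzymes, 1 and 2 of 42 receptor-like proteins and 1 and 1 of 27 beta-glucosidases. ERF factors (86), MYB factors (44), cysteine-rich receptor-like kinases (43) and plant U-box ligases (43) had 0 OS-selected genes by symbol, and 13, 6, 1 and 3 with W more than 1 above. Gene families were matched by symbol only. Since 37 of the 107 genes have no symbol, these counts, and a 0 among them, can miss family members.

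Values near the limits were close on both sides. For Pb OS the nearest genes inside were ABCC4 (2.519) and AT1G27300 (2.543) and the nearest outside ILR1 (2.499) and NAC002 (2.498), and for Sl OS AT5G17760 (2.508) and NUDT13 (2.512) against AT5G03610 (2.489) and AT1G72900 (2.467). At the upper W limit GATL10 (0.996) and SOT12 (0.995) were inside and AT2G28400 (1.003) and AT5G54170 (1.016) outside. At the lower W limit CYP71B15 (−0.414) and FAR5 (−0.293) were the nearest inside and CCOAMT (−1.022) the nearest outside. At the level floor UGT76E4 (1.02) and FMO1 (1.16) were inside, and WRKY63 (0.963) and PS2 (0.95) outside. When each library was left out of the choice in turn, it met its own limit for 27.3% (Pb OS replicate 2) to 98.9% (Sl OS replicate 2) of the genes chosen without it in the OS groups, for 36.1 to 64.5% in W and for 51.8 to 82.6% in Control.

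The genes lay on all 5 chromosomes (34, 18, 28, 13 and 14 genes on chromosomes 1 to 5). Besides PER33 and PER34, TSPO and ABCC4 were 5159 bases apart on chromosome 2 with 2 annotated genes between them, ARL and AT2G44130 were 15437 bases apart on chromosome 2, and AT5G57510 and XTH25 were 15147 bases apart on chromosome 5.

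The choice asked for high values with both OS at 3 h, so genes raised only by Pb OS or only by Sl OS were left out. Within the set so chosen, Pb OS and Sl OS differed little at 3 h, which is a description. Pb OS minus Sl OS had a median of −0.22, was below 0 in 76 genes and above 0 in 31, and exceeded 1 in size in 9. It was lowest for AT1G36622 (−1.81), FMO1 (−1.56), UGT76E4 (−1.43) and AOX3 (−1.27) and highest for NHL10 (1.20). The low Pb OS replicate 2 and the high Sl OS replicate 2 move in the direction of the median, and their part in it was not tested.

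At 24 h most of the genes were closer to Control. With OS, 104 of the 107 had a lower mean log2 value at 24 h than at 3 h, and the other 3 were NIT2, KTI1 and DXPS1. The choice asked for high OS values at 3 h, which favours lower ones at 24 h, and nothing is read from this count. On mean CPM only NIT2 and KTI1 were higher at 24 h with both OS: DXPS1, from its reads, had 3.31 CPM at 24 h and 5.34 at 3 h with Pb OS (at least 27.6-fold and 44.5-fold over Control), and 6.66 CPM at 24 h and 7.33 at 3 h with Sl OS (at least 55.4-fold and 61.0-fold). The medians above Control were 0.92 with Pb OS, 0.90 with Sl OS and 0.47 with W, and 47, 49 and 27 genes were more than 1 above Control, which is 43.9%, 45.8% and 25.2% of them, beside 5.92%, 6.16% and 5.58% of all genes. Of the 42 genes more than 1 above Control with both OS, 25 were so with W as well. In the comparison set of 609 genes the shares were higher, 64.9% with Pb OS, 64.0% with Sl OS and 53.7% with W. These 24 h values share the Control libraries with the choice of the genes and are given as a description.

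NIT2 had 12.5, 11.5, 19.5 and 32.0 CPM with Pb OS and 26.6, 26.3, 14.7 and 14.6 with Sl OS at 24 h, against 3.16, 3.54, 2.62 and 5.21 with W. KTI1 had 6.02, 4.98, 7.22 and 6.84 CPM with Pb OS and 13.9, 31.1, 7.65 and 7.39 with Sl OS at 24 h, against 0.722, 0.453, 2.14 and 1.36 with W. In both genes every OS library at 24 h was above every W library, and W at 24 h was in turn above the 3 h W libraries. KTI1 met the level floor of the rule only through its 24 h OS groups (at 3 h its mean log2 CPM was −0.71 with Pb OS, and with Sl OS it was 0.18), so its high 24 h values were needed for its choice and are a description. At the floor of 3 reads KTI1 was at least 51.6-fold higher with Pb OS, at least 139-fold higher with Sl OS and at least 8.71-fold higher with W at 24 h than in Control. FAR5 had the reverse order at 24 h, with 0.0550, 0.115, 0.566 and 1.06 CPM with Pb OS and 0.114, 0.411, 0.0806 and 0.251 with Sl OS, against 3.01, 1.74, 2.00 and 1.74 with W, so it was high with OS at 3 h and with W at 24 h.

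**Figure D4:**
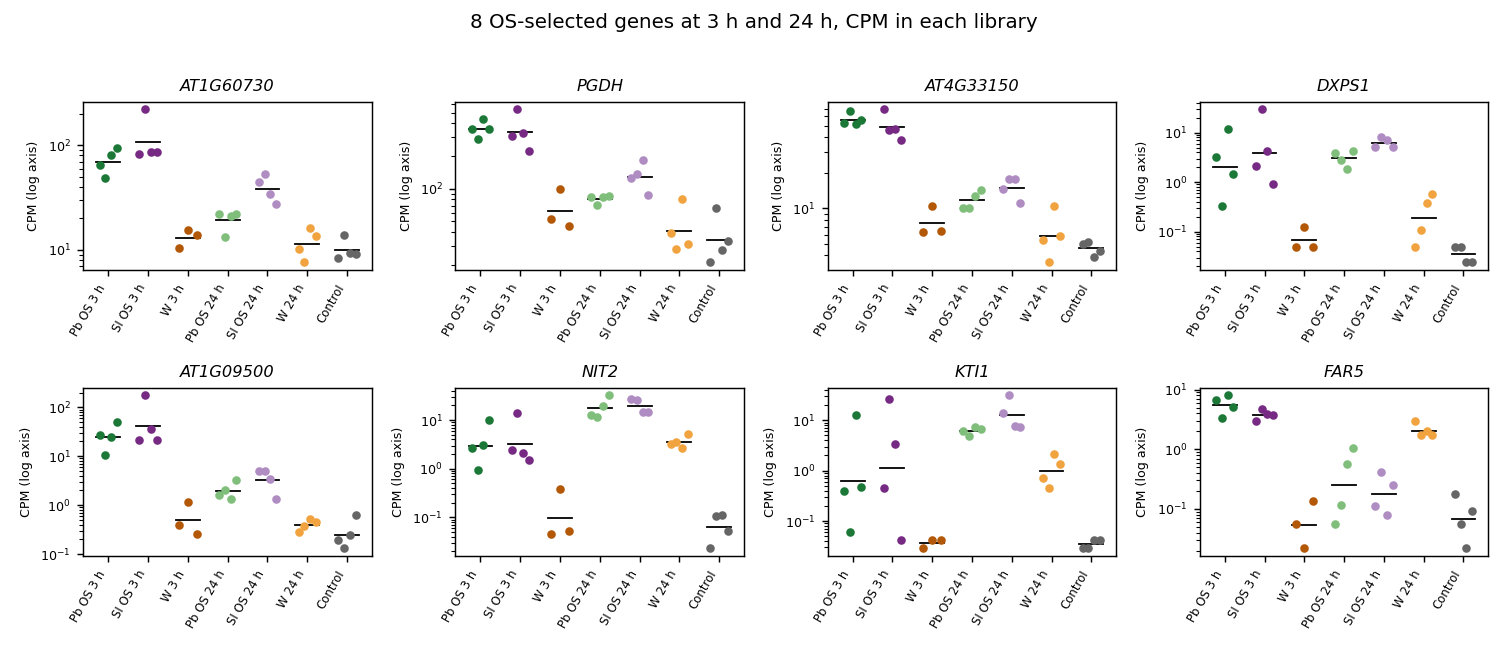
CPM in each library on a log axis for 8 OS-selected genes, by group at 3 h, at 24 h and in Control; each point is a library and the black line is the mean on the log scale. NIT2, KTI1 and DXPS1 have higher log-scale means with OS at 24 h than at 3 h, and FAR5 with W at 24 h (1.74 to 3.01 CPM) lies above all OS libraries of that time.

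The comparison of OS with W at 24 h asks whether the OS-selected genes still differed from wounding alone a day later. The OS and W limits of the choice did not use the 24 h libraries. The level floor could, and 1 gene, KTI1, reached it only through the 24 h groups. The spread in the fit was estimated from all 27 libraries. In limma with Benjamini-Hochberg adjustment over all 18899 genes, Sl OS minus W was called at adjusted p under 0.05 for 0.392% of all genes (74) and for 4 of the 107 (3.74%), all higher with Sl OS. The median over the 107 was 0.56, with 80 above 0, against a median of 0.003 over all genes, and 27 of the 107 and 1199 of all genes had an unadjusted p under 0.05. Without the replicate number as a block, 8 of the 107 were called, 7 higher and 1 lower. With the W 3 h libraries numbered 1, 3 and 4 in the block, as the deposited correction has them, in place of their labels 1, 2 and 3, 6 were called, 5 higher (the 4 and AT4G32480) and 1 lower (FAR5). Leaving out single libraries moved the 4 calls to between 0 (W replicate 1 or 2, or Sl OS replicate 1) and 5 (W replicate 3), with 3 without Sl OS replicate 4 and 2 without W replicate 4. Without Sl OS replicate 3, AT1G60730 alone was called. Without Sl OS replicate 2 none of the 4 was called (adjusted p 0.0919 to 0.120), and the 1 call was FAR5, lower. With only the libraries of Sl OS and W at 24 h in the fit, 0 were called (adjusted p 0.0984 to 0.219 for the 4), and the test on recovered reads called 3, PGDH and AT1G60730 higher and FAR5 lower, but not DXPS1 (adjusted p = 0.510) or AT4G33150 (adjusted p = 0.0887).

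AT1G60730 had 44.2, 53.0, 34.6 and 27.4 CPM with Sl OS at 24 h, against 10.2, 7.64, 16.2 and 13.5 with W, and rose by 1.76 ± 0.323 (SE, adjusted p = 0.0157 by limma). PGDH had 124, 135, 183 and 88.0 CPM with Sl OS, against 38.8, 27.7, 80.8 and 31.1 with W, and rose by 1.66 ± 0.345 (adjusted p = 0.0353). AT4G33150 had 14.5, 17.7, 17.8 and 11 CPM with Sl OS, against 5.37, 3.50, 10.6 and 5.85 with W, and rose by 1.36 ± 0.268 (adjusted p = 0.0256). DXPS1 had 93, 153, 328 and 220 reads with Sl OS, against 0, 1, 17 and 24 with W, and rose by 5.08 ± 0.999 (adjusted p = 0.0256), a size that depends on the prior count. In all 4 genes every Sl OS library was above every W library, a pattern that the call itself favours. Within replicates 1 and 2 the differences were 2.45, 1.98, 1.89 and 6.47 for AT1G60730, PGDH, AT4G33150 and DXPS1, and within replicates 3 and 4 they were 1.06, 1.34, 0.84 and 3.68.

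Just past the threshold were AT1G09500 (3.02, adjusted p = 0.0556), FAR5 (−3.56, adjusted p = 0.0572), PER33 (3.20, adjusted p = 0.0645) and the monooxygenase gene MO2 (1.76, adjusted p = 0.0788), the last named after its values were seen. By role, the Sl OS minus W median was 1.5 for amino acid, carbon and isoprenoid genes, 1.06 for conjugation, redox and transport, 0.61 for cell wall, 0.60 for immune signalling, 0.53 each for apoplast and for phenylpropanoid genes, 0.43 with no role, 0.13 for cold, senescence and protein folding and 0.09 for transcription and hormones. In the comparison set 22 of 609 genes were called, 17 of them higher, with a median of 0.35.

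Pb OS minus W at 24 h was called for 0.0582% of all genes (11) and for 0 of the 107 in limma, where 19 had an unadjusted p under 0.05 against 665 of all genes, and the test on recovered reads also called 0. The median was 0.31, with 84 above 0, and the smallest adjusted p was 0.243 (DXPS1, 4.04 ± 0.999). The 4 genes called with Sl OS had Pb OS minus W of 0.74 (AT1G60730), 0.99 (PGDH), 1.00 (AT4G33150) and 4.04 (DXPS1), all above 0. In the comparison set 4 of 609 were called, all higher, with a median of 0.29. The Pb OS and Sl OS differences share the same W libraries.

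**Figure D5:**
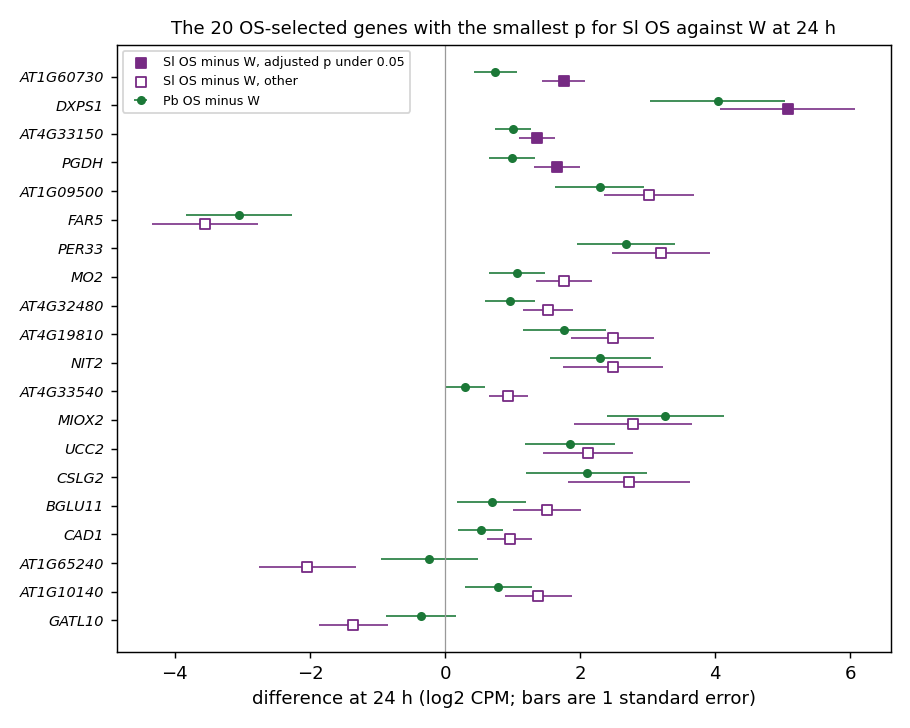
Differences from W at 24 h in log2 CPM, with bars of 1 standard error, for the 20 OS-selected genes with the smallest p for Sl OS against W; squares are Sl OS minus W (filled at adjusted p under 0.05) and circles Pb OS minus W. Only AT1G60730, DXPS1, AT4G33150 and PGDH are filled, and FAR5, AT1G65240 and GATL10 are the genes to the left of 0 for Sl OS.

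Tested against each other at 24 h, the 2 OS gave calls for 0.0% of all genes and 0 of the 107 in limma, with 5 of the 107 and 691 of all genes at an unadjusted p under 0.05, and 0 of the 107 in the test on recovered reads. For the 4 genes called against W, Pb OS minus Sl OS was −1.01 ± 0.323 (AT1G60730), −0.67 ± 0.345 (PGDH), −0.36 ± 0.268 (AT4G33150) and −1.04 ± 0.999 (DXPS1), so a difference between the OS was not shown for any of them. Over the 107 the median was −0.16 and 40 were above 0, against −0.020 over all genes.

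On the gene lists, Sl OS against W at 24 h called 5 glutathione transferases, 3 cytochromes P450, 2 MATE carriers and 1 each of the mitochondrial retrograde, UDP-glycosyltransferase, xyloglucan endotransglucosylase, peroxidase, receptor-like protein and beta-glucosidase lists, all higher, with 1 ERF factor higher and 1 lower and 1 ABC transporter higher and 3 lower. The other 10 lists had 0. Pb OS against W called 2 cytochromes P450 and 1 xyloglucan endotransglucosylase, higher, and 1 ABC transporter, lower, with 0 on the other 18 lists. Pb OS against Sl OS called 0 on all 21. None of the list genes called was OS-selected.

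Sequence around the gene starts was described over 300 bases, 250 before and 50 after the start, on both strands. TTGAC, part of the longer TTGACC and TTGACT, was found in 66.4% of the 107 windows, against 51.0% of all 18833 windows and 58.5% of those of the comparison set. TTGACC was in 20.6%, against 14.5% of all and 19.5% of the comparison set, TTGACT in 35.5%, against 22.0% and 26.6%, and TGACG, the TGA factor core, in 35.5%, against 23.9% and 27.1%. ACGTG was in 46.7% against 27.8% of all and 43.7% of the comparison set, and CACGTG, which contains it, in 12.1% against 9.01% and 14.4%. CGCGT was in 14.0%, against 9.83% and 12.8%, GAANNTTC in 15.9%, against 11.6% and 13.0%, AAATATCT in 7.48%, against 6.12% and 8.05%, and GCCGCC in 1.87%, against 2.77% and 2.46%. Among the stretches printed above, both lectins carry TTGACC at a like place near the gene, AT1G60730 carries TTGAC and ACGTG, and PER34 has TTGAC at 2 places where PER33 has none in the printed bases. In the window of 300 bases PER33 has 1 match of TTGAC, as TTGACC, and 1 of ACGTG. These matches are a description of letters and say nothing of which factors bound.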

How the data were processed

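RNA-seq was done on leaf discs of Arabidopsis Col-0 in 7 groups and 27 libraries. According to the methods and the submitters' processing notes, reads were trimmed with cutadapt 2.5, aligned with STAR 2.5.3a to TAIR10 and counted per gene with HTSeq 0.9.1; read strand in counting is not given in the sources used here, so overlapping and antisense genes cannot be told apart. The authors deposited log2 CPM values, scaled by TMM with a prior count of 1 after dropping genes under their CPM minimum, and corrected them for batch. Tested on the values, the correction was for 2 batches, replicates 1 and 2 against 3 and 4 (the W 3 h libraries counting as replicates 1, 3 and 4), with a median size of 0.093. Once it was undone, 100% of the 18899 genes came out as whole reads in all 27 libraries (tolerance 0.02 reads), 22.48 to 31.34 M reads per library; intervals and floors cover counting error only. A further deposited table holds the authors' own comparisons (fold changes and p-values) and was not used.

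The 107 genes were chosen by the rule given at the start of the results. Group means with the replicate number as a block of 4 were fitted to the deposited log2 values of all 27 libraries in limma 3.58.1 (R 4.3.3), with Benjamini-Hochberg adjustment over 18899 genes and calls at adjusted p under 0.05. The block follows the methods, which treat replicate numbers as batches of plants. It uses the labels' numbers, 1 to 3 for W at 3 h, and the numbering 1, 3 and 4 of the deposited correction was an alternative. In the corrected values, deviations of same-numbered samples correlated from −0.47 to 0.58 (median −0.24, 78 pairs) and of others from −0.67 to 0.56 (median 0.11, 234 pairs). The replicates are described as independent, but p-values measure the spread between these samples only. The test on recovered reads was voom in limma; it called 7 genes for Pb OS and 70 for Sl OS against W at 24 h. The script was tested on simulated data. Other fits, thresholds, a pseudocount of 5 CPM and leaving out each library were alternatives.

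The genes and the lists were chosen with earlier results of these data known, and roles were assigned by hand after the values were seen. Genes were named if among the 15 largest mean OS differences or the 10 highest levels, if called at 24 h, if on 1 of the 21 lists, if nearest to a limit, or if close neighbours; of the genes so named, those with their library values in full, and other exceptions (among them COR27, AT1G36622 and MO2), were picked after seeing the values. Locus tags matched RefSeq TAIR10.1 for 18834 genes and all 107, and coordinates and sequences are from that annotation, RefSeq's release of TAIR10 (the deposited values carry no coordinates); no protein sequences were used here.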

Additional observations from a re-analysis of the deposited data

Results flagged for a closer look

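For 22 of the genes and for their median, the 6 groups of 4 libraries were searched for a library far from the other 3 (138 groups), by the gap to the nearest library over the whole range. This marked 24. A chance rate of about 1 in 20 (6.9 of 138) holds only for independent groups with normally distributed values. These groups share libraries and CPM are skewed, so nothing is read from the difference. Most of the marks fell in 2 libraries.

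Sl OS 3 h replicate 2 was far above the other Sl OS 3 h libraries for CYP71B15 (589 CPM against 18 to 45.2), KTI1 (26.2 against 0.0418 to 3.43), UGT1 (390 against 138 to 146), AT1G60730 (220 against 81.8 to 86.4), AT1G09500 (175 against 21.0 to 36.6), DXPS1 (29.4 against 0.940 to 4.27), NIT2 (13.8 against 1.52 to 2.37) and GH3.3 (251 against 11 to 31.6). The median log2 CPM over the 107 genes was 5.30 in it, against 3.99 to 4.12 in the other 3.

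Control replicate 2 was far above the other Controls for CHI (79.6 CPM against 0.972 to 3.12), ALD1 (12.7 against 0.0366 to 0.770), FMO1 (1.96 against 0.0372 to 0.0695), CYP71B15 (20.6 against 0.622 to 1.33) and GSTL1 (0.840 against 0.0290 to 0.0415). Pb OS 3 h replicate 3 was far above the rest of its group for ALD1 (57.9 CPM against 0.397 to 4.29), FMO1 (13.2 against 0.0324 to 1.16) and KTI1 (12.8 against 0.0607 to 0.467).

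At 24 h, Pb OS replicate 2 was low for CHI (10.2 CPM against 13.9 to 14.3), AT1G60730 (13.4 against 21.1 to 21.9) and PGDH (70.5 against 83.9 to 85.1), Pb OS replicate 4 was high for UGT1 (19.6 against 16.5 to 16.9) and W replicate 1 was high for ALD1 (1.24 against 0.0366 to 0.211). The median log2 CPM over the 107 genes was 2.70 in Sl OS 24 h replicate 2, against 2.08 to 2.16, and 1.37 in W 24 h replicate 2, against 1.68 to 1.74. The causes were not tested.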

How the results depend on the processing

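The number of genes that met the rule depended on its limits: 107 as given, 219 with an OS threshold of 2, 49 with 3, 36 with W within 0.5 of Control, 165 with no level floor, 43 on log2(CPM + 5) and 81 to 150 when single libraries were left out. With log2(CPM + 5), which shrinks low genes, 5, 13 and 0 of the 107 were more than 1 above Control at 24 h with Pb OS, Sl OS and W. Leaving out single libraries gave 36 to 56, 45 to 58 and 23 to 37.

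The 4 calls for Sl OS against W at 24 h became 8 with no replicate block, 6 with 2 batches in place of 4, 9 with 2 batches at each time, 6 with the W 3 h libraries numbered 1, 3 and 4 in the block, 11 with the 24 h libraries only, 0 with only the libraries compared, 2 with genes of a mean log2 value over 0 only (84 of the 107 tested) and 0 to 5 when single libraries were left out. For Pb OS against W the 24 h libraries alone gave 1 (AT4G32480) in place of 0, and all other settings gave 0 of the 107. Over all genes the block moved the calls for Pb OS against W from 11 to 32 without it, 19 with 2 batches and 51 with 2 batches at each time. For Pb OS against Sl OS every alternative gave 0. All genes called ranged from 1 to 51 (Pb OS against W) and from 7 to 236 (Sl OS against W) over these settings. Fits without Control replicate 2, Pb OS 3 h replicate 2 or Sl OS 3 h replicate 2, chosen after seeing the data, gave 5, 5 and 6 for Sl OS against W. Over 83 alternatives for the 4 called genes, none changed direction and 51 kept the call. Of 132 alternatives of differences at 3 h, none changed direction and 24 moved by more than the replicate spread. The causes were not tested. Low read numbers limit KTI1, DXPS1, FMO1 and the other genes with 0 reads in a Control.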
